A study of Mus musculus with 14 samples.

Results

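Il10, Il24 and Maf were followed in murine repeatedly activated Th1 (Th1 rep) cells after antagonism of miR-31. The members were taken as every probe set annotated to 1 of these 3 gene symbols alone, which gave 8 probe sets (1 for Il10, 1 for Il24 and 6 for Maf) of the 34945 probe sets with a single symbol, and 3 of 18193 genes. The genes were chosen on their differences between treatments at 72 h, so their values at 72 h are given below as a description, without a test. CD4+CD62Lhi naive T cells of OTII mice, aged 6 to 10 weeks, had been cultured with irradiated antigen-presenting cells, ovalbumin peptide, IL-12 and antibody against IL-4 for 4 rounds of stimulation. They then received Antagomir-31, a cholesterol-coupled oligonucleotide that pairs with miR-31, or the unspecific control Antagomir-SCR, each at 1 µM, and were reactivated with plate-bound antibodies against CD3 and CD28 in medium with IL-12, IL-2 and antibody against IL-4, which both treatments share. RNA was taken 36 h, 48 h and 72 h after the treatment and hybridized to 14 Affymetrix Mouse 430_2 arrays. Each treatment was measured on 3 arrays at the last time and on 2 at either of the earlier ones. No untreated cells were among these arrays. Nothing in the sources used here tells whether replicates came from separate cultures, so the p-values may rest on technical spread alone.

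Il10 encodes interleukin-10, a cytokine that restrains inflammation and that Th1 cells can make alongside IFN-γ when they are stimulated strongly or repeatedly. It acts through a receptor of the chains IL-10RA and IL-10RB and through STAT3. Il24 encodes interleukin-24, another cytokine of the IL-10 family, whose receptors pair IL-20RB with IL-20RA or IL-22RA1 and sit mainly on epithelial cells rather than on T cells. Maf encodes c-Maf, a basic leucine zipper transcription factor that binds the Il10 gene and drives its expression in several T helper subsets, Th1 cells among them.

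Il24 and Il10 lie in 1 cytokine cluster of mouse chromosome 1, at chr1:130882074-130887411 and chr1:131019845-131024970 (GRCm38.p6, RefSeq), 132.4 kb apart with Il20 and Il19 between them. Maf is at chr8:115703253-115706894. Antagomir-31 is antisense to the 5p strand of miR-31, whose mature sequence (RefSeq, chr4:88910614-88910635, minus strand of GRCm38.p6) is shown because it defines the treatment, with the seed, bases 2 to 8, in capitals.
mmu-miR-31-5p: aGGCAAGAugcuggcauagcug
Il10, Il24 and Maf were not on the study's list of putative miR-31 targets, whereas 6 genes of the lists described below were (Bach2, Bcl6, Ikzf1, Irf1, Mafg and Mapkapk2).

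The deposited values are RMA intensities on the linear scale. Array medians lay between 23.4 and 23.8 at 36 h, between 21.8 and 22.1 at 48 h and between 27.9 and 28.4 at 72 h, close within a time and different between times. For this reason treatments were tested only within a time, and levels at different times are described without a test. All 11 Th1 markers were measured and had mean ranks above the median gene, from 8188 to 17166 for Ifng and 944 to 1885 for Tbx21 to 44.4 to 64.9 for Cxcr3, the dimmest. Of 6 Th2 genes measured, Il4 (9.79 to 21.3), Il5 (7.32 to 13.4) and 3 others, Gata3 among them, had mean ranks below the median gene. Group means of Gata3 were 71.6 to 92.1 at 36 h and 48 h and 20.3 to 22.1 at 72 h, with single arrays up to 100.5. Il13 ranked above the median gene, at 55.2 to 98.0. Foxp3 was at 6.52 to 15.8. The values of Antagomir-SCR replicate 4 at 72 h were deposited with more decimals than those of the other 13 arrays, and members are given below with and without this array.

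Il24 was the member whose difference between treatments turned with time. Its probe set 1426181_a_at read 219 and 246 in Antagomir-31 cells at 36 h, against 170 and 213 in Antagomir-SCR cells. At 48 h it read 238 and 260 in Antagomir-31 cells, against 187 and 212 in Antagomir-SCR cells. At 72 h it read 245, 272 and 297 in Antagomir-31 cells, against 362, 440 and 444 in Antagomir-SCR cells. The treatments did not overlap at any of these times, with Antagomir-31 cells above at 36 h and 48 h and below at 72 h. Among all genes, arrays did not overlap in the direction of Il24 for 15.3% at 36 h, 13.8% at 48 h and 14.7% at 72 h. At 48 h 19.8% were apart the other way, with Antagomir-31 cells below. In bulk RNA, fewer cells that express a gene and less RNA per cell cannot be told apart.

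**Figure D1:**
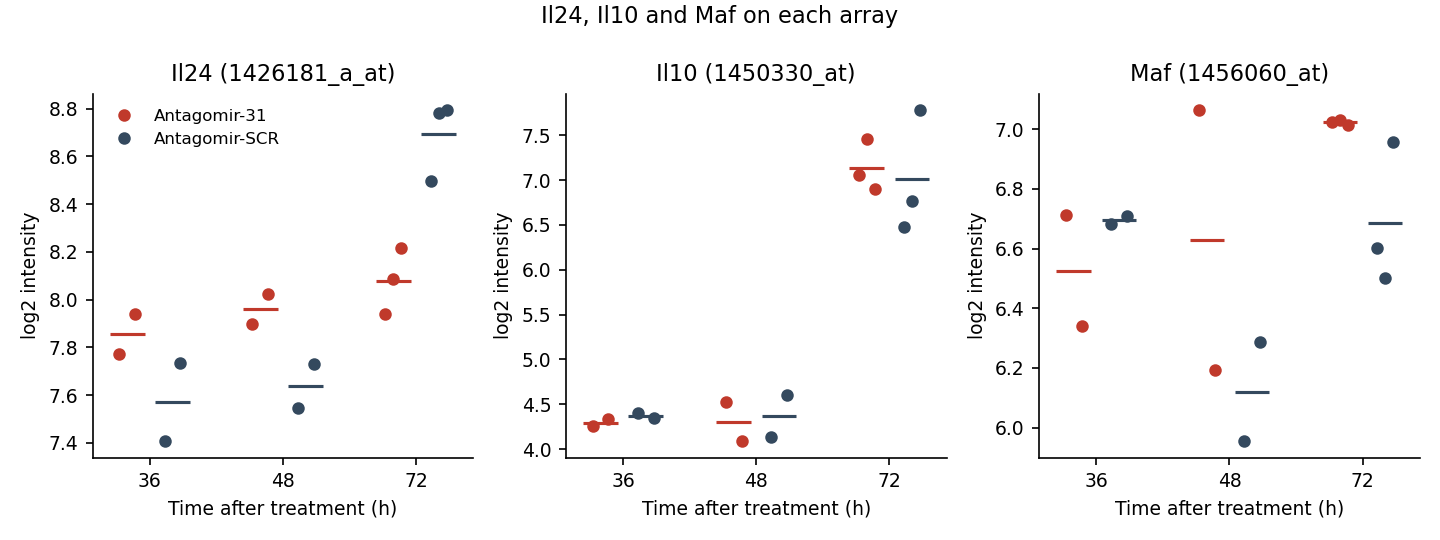
Log2 intensity (y axis) of Il24, Il10 and Maf against the time after treatment in hours (x axis); each point is 1 array, Antagomir-31 left and Antagomir-SCR right at each time, and bars are means of 2 arrays at 36 h and 48 h and of 3 at 72 h. Il24 sits higher with Antagomir-31 at 36 h and 48 h and lower at 72 h, Il10 is far higher at 72 h with either treatment, and Maf at 72 h reads 129 to 131 with Antagomir-31 on the linear scale, above all 3 Antagomir-SCR arrays.

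On the log2 scale, the difference of Il24, Antagomir-31 minus Antagomir-SCR, was 0.29 ± 0.13 (SE, n = 2 each) at 36 h, with a 95% interval of 0.01 to 0.56 and a limma adjusted p of 0.907 over 10916 genes, and it was 0.12 without Antagomir-SCR replicate 1 and 0.45 without Antagomir-SCR replicate 2. It was 0.32 ± 0.13 (SE, n = 2 each) at 48 h, with an interval of 0.05 to 0.60 and a limma adjusted p of 0.769. On the average of both times it was 0.30 ± 0.09 (SE), or 1.23-fold, with an interval of 0.11 to 0.50 and a limma adjusted p of 0.398. None of these passed the threshold of 0.05. In the same fits 0.0% of genes passed at 36 h, 0.0% at 48 h and 0.00916% on the average, which is 1 gene, Atf5 (a stress-response transcription factor, named after its value was seen), while 588 genes had an unadjusted p under 0.05 at 36 h and 654 at 48 h. Arrays did not overlap, with Antagomir-31 cells above as for Il24, for 15.3% of genes at 36 h and 13.8% at 48 h.

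At 72 h Il24 averaged 271 ± 25.8 in Antagomir-31 cells and 415 ± 46.5 in Antagomir-SCR cells (SD, n = 3 each). The log2 difference was -0.61 ± 0.10 (SE), a fold of 0.654, and it was -0.56 without Antagomir-SCR replicate 4. At this time 1.05% of the genes passed the threshold, 0.458% higher and 0.595% lower in Antagomir-31 cells, and nothing is read from this about Il24, since this difference was used to propose it. The pattern of Il24, higher at 36 h and 48 h and lower at 72 h with no overlap at any time, was shared by 61 genes, 0.559% of those tested, a count made after its values were seen. Among the 61, Il24 had the largest drop from the average early difference to that at 72 h, -0.92, followed by Insl5 (-0.70), an insulin-like peptide, Elovl6 (-0.57), a fatty acid elongase, Mgarp (-0.54) and the inhibitory receptor Ctla4 (-0.51). Nothing is read from this rank, since the drop includes the 72 h difference used to propose Il24 and the 61 were picked by its pattern.

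**Figure D2:**
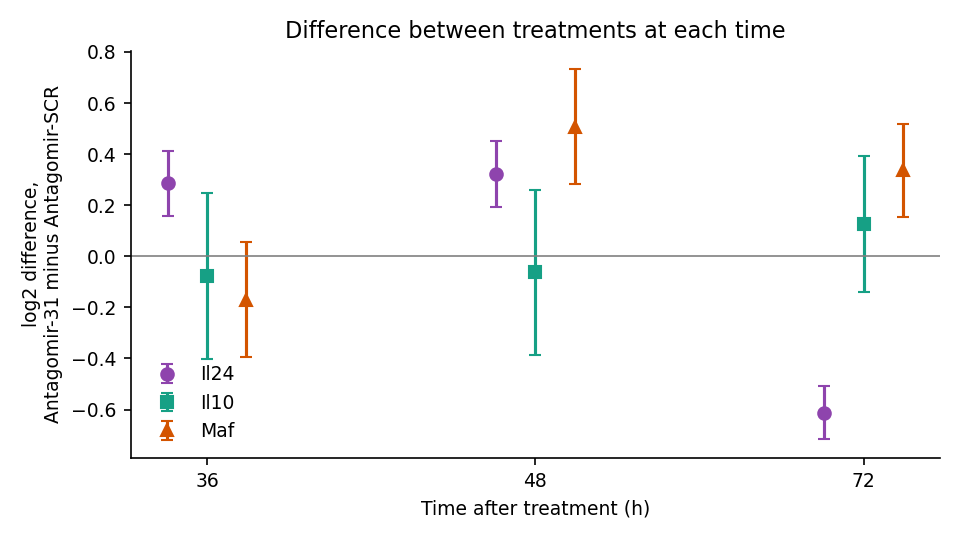
Log2 difference, Antagomir-31 minus Antagomir-SCR (y axis), of Il24, Il10 and Maf at 36 h, 48 h and 72 h after treatment (x axis); points are estimates of the fit over 6 groups and bars are 1 standard error. Il24 goes through 0.29, 0.32 and -0.61, Il10 stays within 1 standard error of 0, and Maf goes through -0.17, 0.51 and 0.34.

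The order of the Il24 levels, from the highest mean, was Antagomir-SCR cells at 72 h, Antagomir-31 cells at 72 h, 48 h and 36 h, and Antagomir-SCR cells at 48 h and 36 h. Among Antagomir-31 cells, the arrays of each time overlapped with those of the next in this order, as did the early arrays of Antagomir-SCR cells with each other. Antagomir-SCR cells at 72 h stood apart from all other groups, and those at 48 h from Antagomir-31 cells at 36 h. Between 48 h and 72 h the geometric mean of Il24 was multiplied by 1.09 in Antagomir-31 cells, with overlapping arrays, and by 2.08 in Antagomir-SCR cells, without overlap. On the log2 scale these steps were 0.12 in Antagomir-31 cells and 1.05 in Antagomir-SCR cells, set against a median step of 0.33 over all genes tested. The mean percentile of Il24 among the genes of an array was 76.4 at 48 h and 74.3 at 72 h in Antagomir-31 cells, and 72.9 at 48 h and 80.9 at 72 h in Antagomir-SCR cells. By rank, Il24 was thus lower at 72 h than at 48 h in Antagomir-31 cells and higher in Antagomir-SCR cells, and the difference between the steps was not tested.

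Il10 differed mainly by time. Its probe set 1450330_at read 19.1 and 20.2 in Antagomir-31 cells at 36 h, against 21.1 and 20.4 in Antagomir-SCR cells. At 48 h it read 23.0 and 17.0 in Antagomir-31 cells, against 17.6 and 24.3 in Antagomir-SCR cells. At 72 h it read 133, 176 and 119 in Antagomir-31 cells, against 89.1, 109 and 220 in Antagomir-SCR cells. At 36 h and 48 h it lay near the median intensity of the arrays, and every 72 h array lay above every earlier one. The treatments overlapped at 48 h and 72 h but not at 36 h, where Antagomir-31 cells were below, as in 14% of genes.

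Between 48 h and 72 h the mean log2 intensity of Il10 differed by 2.83 in Antagomir-31 cells and by 2.64 in Antagomir-SCR cells. The 48 h level was as dim as that of genes not tested here, such as Il20, and no detection call was used, so the size of this step is uncertain. Its percentile among the genes of an array was 34.2 at 48 h and 63.8 at 72 h in Antagomir-31 cells, and 35.0 at 48 h and 62.6 at 72 h in Antagomir-SCR cells. Averaged over the treatments the log2 step was 2.74, the 19th largest of 10916 genes, beside the median of 0.33 over all genes, and it was 2.36 after quantile normalization over all arrays. Il10 passed the filter on low values through its 72 h arrays. Sums of markers of other cells also differed by time. That of 5 mast cell and basophil genes was 118 to 153 in Antagomir-31 cells and 111 to 123 in Antagomir-SCR cells at 72 h, and 58.7 to 73.0 in Antagomir-31 cells and 60 to 67.1 in Antagomir-SCR cells at the earlier times. All 5 had a mean rank below the median gene, the highest single value being 94.0 for Cpa3, and their part in the Il10 level was not tested. The sums of 7 macrophage and monocyte markers were 243 to 251 in Antagomir-31 cells and 235 to 242 in Antagomir-SCR cells at 72 h, within the range of 206 to 262 at the earlier times. In Antagomir-31 cells at 72 h the sums were 128 to 147 for 5 B cell genes, 3316 to 3462 for 5 Treg genes and 79.9 to 82.1 for 2 Th17 genes, against 77.8 to 115, 2557 to 2962 and 50.9 to 65.5 at the earlier times. In Antagomir-SCR cells at 72 h they were 128 to 136 for B cell genes, 3477 to 3611 for Treg genes and 77.3 to 84.7 for Th17 genes, against 86.3 to 107, 2389 to 2845 and 53.0 to 66.7 at the earlier times. These 3 sums, like Il10, were thus above all earlier arrays at 72 h, when array medians were higher as well. Not all their genes were, since Ctla4 and Nrp1 of the Treg list had lower means at 72 h than earlier. In Antagomir-31 cells Nrp1 averaged 709 at 36 h, 556 at 48 h and 142 at 72 h. Il2ra, the largest part of the Treg sum, averaged 1582, 1349 and 2800 there. The sums of Th1, Th2 and CD8 T and NK cell genes were instead below all earlier arrays at 72 h. The part of any of these sums in the Il10 level was not tested.

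Between treatments, the log2 difference of Il10 was -0.08 ± 0.32 at 36 h, -0.06 ± 0.32 at 48 h and -0.07 ± 0.23 on their average (SE), with limma adjusted p of 1, 1 and 0.989. The 95% interval of the average ran from -0.57 to 0.43. At 72 h Il10 averaged 143 ± 29.6 in Antagomir-31 cells and 139 ± 70.5 in Antagomir-SCR cells (SD, n = 3 each). The log2 difference there was 0.13 ± 0.26 (SE), and the arrays overlapped. It rested on single arrays, being 0.51 without Antagomir-SCR replicate 4, -0.03 without Antagomir-31 replicate 3 and -0.14 without Antagomir-SCR replicate 2.

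Maf was read by 6 probe sets of very unequal brightness. The brightest, 1456060_at, which gave the value of the gene on every array, read 105 and 81.0 in Antagomir-31 cells at 36 h, against 103 and 105 in Antagomir-SCR cells. At 48 h it read 134 and 73.1 in Antagomir-31 cells, against 62.0 and 78.1 in Antagomir-SCR cells. At 72 h it read 130, 131 and 129 in Antagomir-31 cells, against 97.2, 90.6 and 124 in Antagomir-SCR cells. The treatments overlapped at 36 h and 48 h and were apart at 72 h, with Antagomir-31 cells above, as 9.44% of genes were.

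The log2 difference of Maf was -0.17 ± 0.22 (SE) at 36 h and 0.51 ± 0.22 at 48 h, with limma adjusted p of 1 and 0.816, and 0.17 ± 0.16 on the average, with an adjusted p of 0.919. The difference at 48 h rested on Antagomir-31 replicate 1, and it was 0.07 without that array. At 72 h Maf averaged 130 ± 0.717 in Antagomir-31 cells and 104 ± 17.8 in Antagomir-SCR cells (SD, n = 3 each), a log2 difference of 0.34 ± 0.18 (SE), and 0.47 without Antagomir-SCR replicate 4. By time, the mean of Maf in Antagomir-31 cells was 92.9 at 36 h, 103 at 48 h and 130 at 72 h. In Antagomir-SCR cells the mean was 104 at 36 h, 70.1 at 48 h and again 104 by 72 h. The log2 step from 48 h to 72 h was 0.39 in Antagomir-31 cells and 0.57 in Antagomir-SCR cells, near the median of 0.33 over all genes.

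The other 5 probe sets of Maf lay between 7.74 and 39.5 on every array, and 1435828_at and 1444073_at did not pass the filter on low values, so that 6 of the 8 probe sets of the members did. By time, 1437473_at averaged 12.8 at 48 h and 36.7 at 72 h in Antagomir-31 cells, and 15.6 and 32.6 in Antagomir-SCR cells. The mean of 1447849_s_at at 36 h, 48 h and 72 h was 11.6, 31.4 and 30.6 in Antagomir-31 cells. In Antagomir-SCR cells it was 13.7, 26.6 and 25.1. At 72 h the log2 differences were 0.18 ± 0.08 for 1437473_at, 0.26 ± 0.18 for 1447849_s_at, 0.04 ± 0.07 for 1444073_at, -0.005 ± 0.07 for 1435828_at and -0.13 ± 0.09 for 1447945_at (SE), each with overlapping arrays. At 48 h, 1437473_at read 12.7 and 12.9 in Antagomir-31 cells, against 16 and 15.2 in Antagomir-SCR cells. That difference of -0.29 ± 0.10 had a limma adjusted p of 0.753 over 20967 probe sets and had the opposite sign to that of 1456060_at, but 1437473_at passed the filter only through its 72 h arrays and was dim at 48 h. By its group means 1447945_at, too, passed only through 72 h, and 1447849_s_at only through 48 h and 72 h. At 36 h all 6 probe sets had differences below 0, between -0.22 and -0.07, with a limma adjusted p of 1 each. These are readings of the same arrays, and all but 1456060_at were dim there. The SE and p of 1435828_at and 1444073_at came from a fit over all 34945 probe sets with a single symbol.

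**Figure D3:**
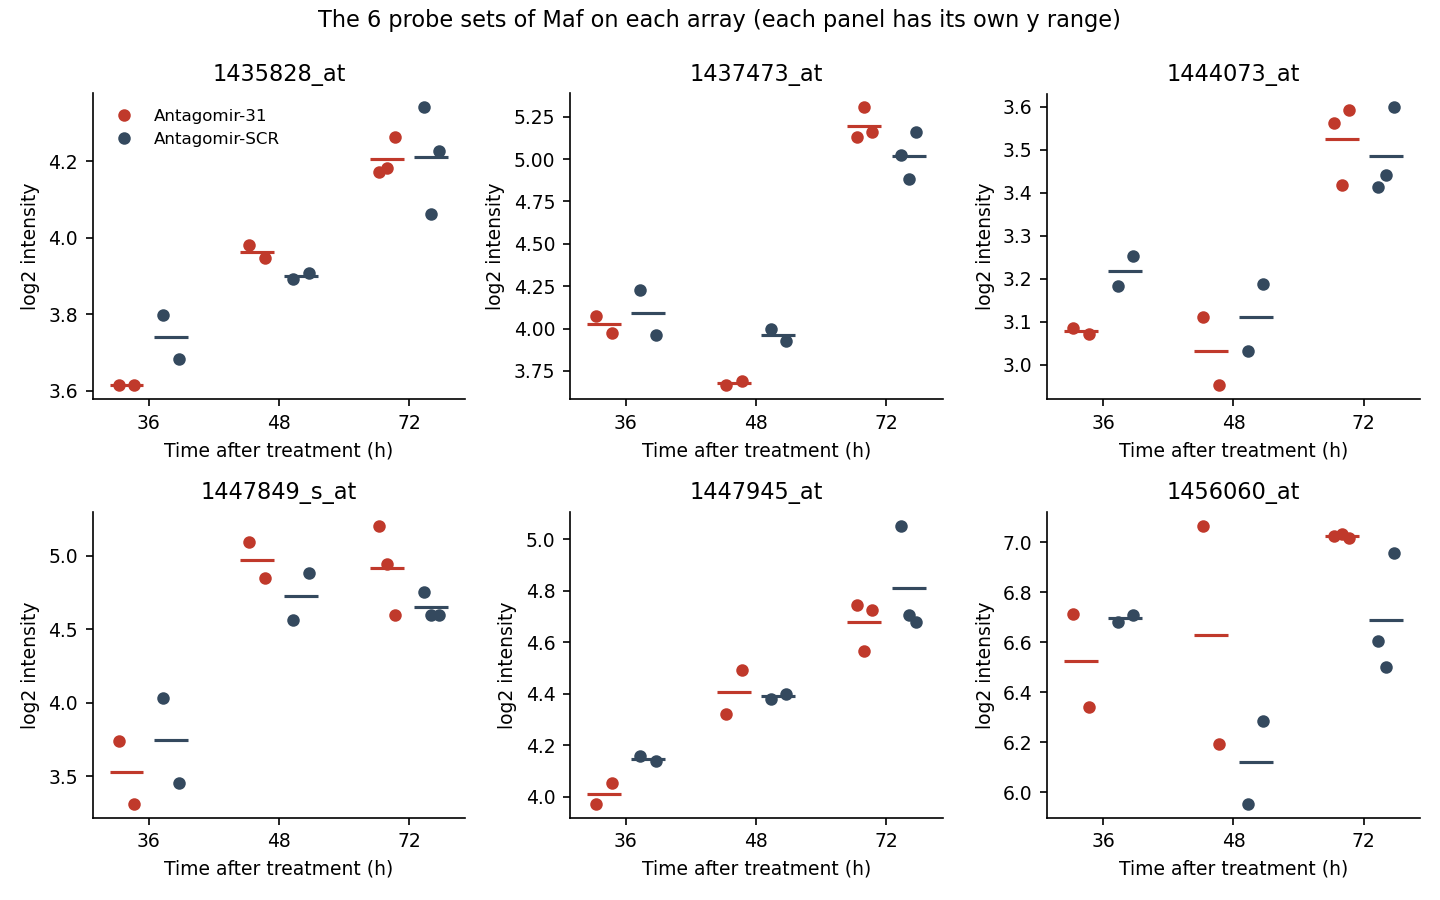
Log2 intensity (y axis, with its own range in each panel) of the 6 probe sets of Maf against the time after treatment in hours (x axis); each point is 1 array, Antagomir-31 left and Antagomir-SCR right, and bars are means of 2 arrays at 36 h and 48 h and of 3 at 72 h. Among these panels, the treatments are apart at 72 h for 1456060_at and overlap for the other 5.

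The members did not follow each other closely from array to array. After the mean of each time was subtracted, Pearson's r over the 14 arrays was 0.50 between Il10 and Maf, -0.004 between Il10 and Il24 and -0.22 between Il24 and Maf, descriptions over arrays that share treatment and normalization. For Il10, Maf ranked 559th of 10915 genes by this measure. Antagomir-SCR replicate 4 at 72 h was the highest Antagomir-SCR array of that time for all 3 members.

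By the same measure, the genes most like Il24 were the noncoding RNA Zfas1 (r = 0.95), Sqle (0.93), an enzyme of cholesterol synthesis, Batf3 (0.93), a partner of the AP-1 family, Fbxw9 (0.90) and Capsl (0.89). Their log2 differences were smaller than that of Il24, 0.05 to 0.19 at 36 h and 48 h and -0.28 to -0.15 at 72 h. Differences between treatments stayed in this measure, so the shared signs follow from how these genes were picked. Nothing is read from these signs or sizes. The genes most like Il10 were Itgb7 (0.89), the integrin β7 chain, Prnp (0.88), the prion protein, Tmem176a (0.87), Kcnj8 (0.87), a potassium channel, and Asb2 (0.86). Those most like Maf were Tob2 (0.95), Golph3 (0.92), Slco4a1 (0.88), Tmem109 (0.87) and Ankrd10 (0.87).

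**Figure D4:**
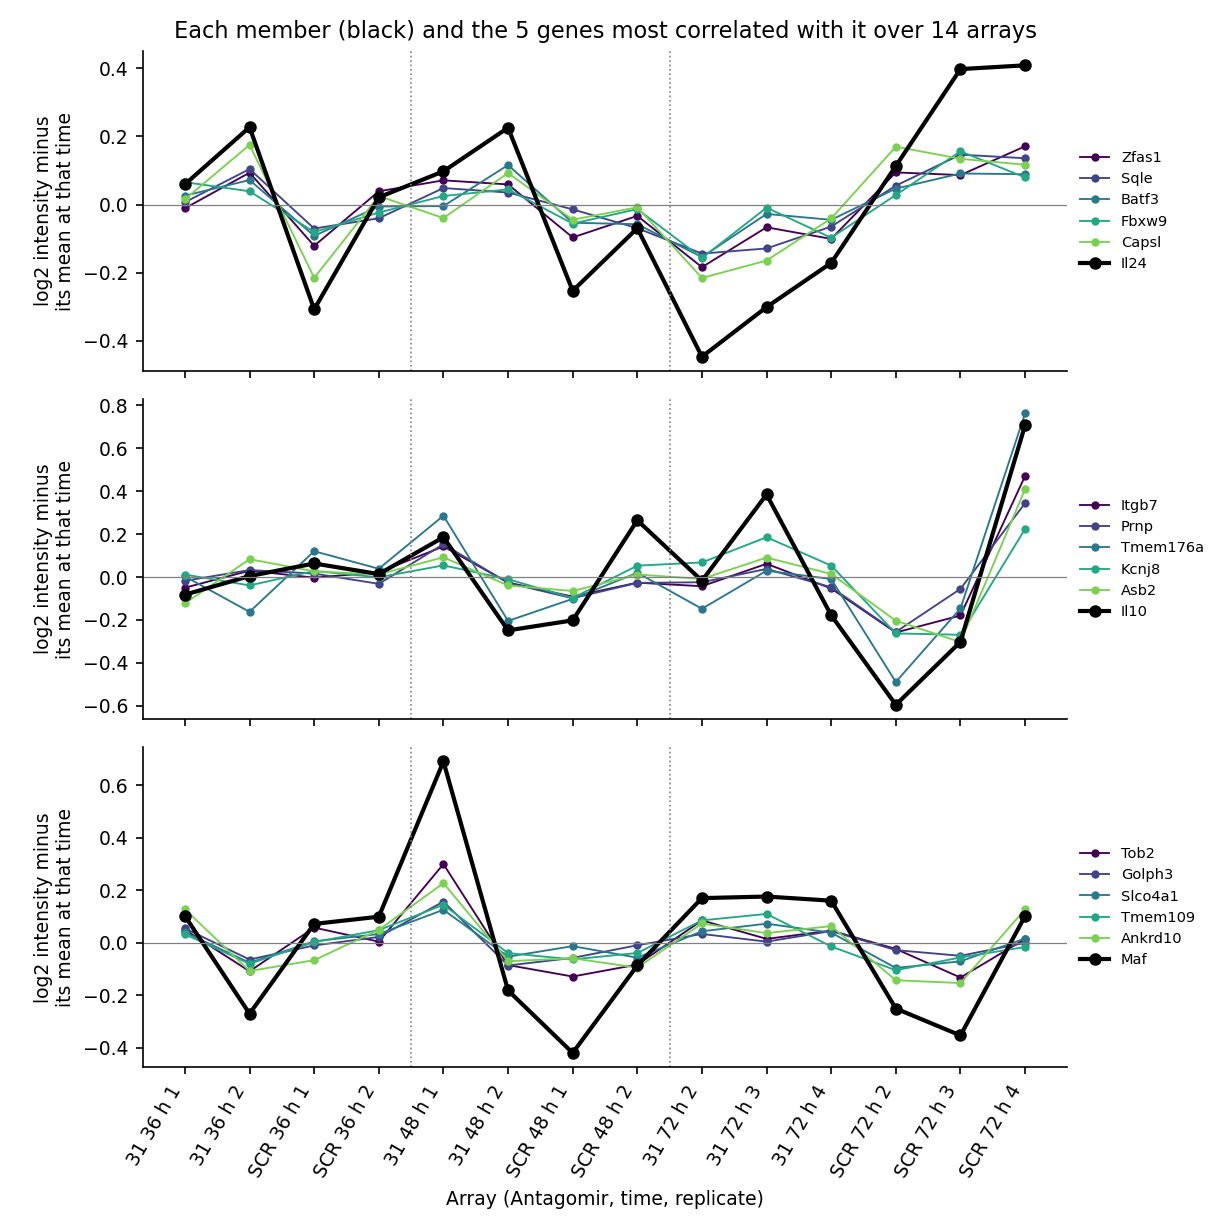
Log2 intensity minus its mean at that time (y axis) on each of the 14 arrays (x axis, named by antagomir, time and replicate, with dotted lines between times), for each member in black and the 5 genes most correlated with it in colour. The Il24 group changes sign between the early times and 72 h, the Il10 group is highest on Antagomir-SCR replicate 4 at 72 h, and the Maf group is highest on Antagomir-31 replicate 1 at 48 h.

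Genes around the members were taken from 9 lists, 138 genes in all, of which 104 besides the members were tested. At 36 h and 48 h none passed the limma threshold. At 72 h 2 were higher and 5 lower in Antagomir-31 cells, 6.73% of the 104 beside 1.05% of all genes, and since the lists were drawn up with results of these arrays known, nothing is read from that share. The median log2 difference of the 104 was -0.02 at 72 h, against -0.01 over all genes.

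Of the family and its receptors, the only other cytokine measured, Il20, was at 17.6 to 27.3 and was not tested. Il10ra, the chain that binds IL-10, averaged 44.7 ± 4.21 in Antagomir-31 cells and 56.9 ± 1.69 in Antagomir-SCR cells at 72 h (SD, n = 3 each), a log2 difference of -0.35 ± 0.07 with a limma adjusted p of 0.038. Il10rb, the shared chain, averaged 187 ± 5.58 in Antagomir-31 cells and 213 ± 11.0 in Antagomir-SCR cells, with a log2 difference of -0.19 and an adjusted p of 0.080. The chains that IL-24 binds were dim, at 21.7 to 33.6 for Il20ra, 12.0 to 17.2 for Il20rb and 8.64 to 11.6 for Il22ra1, and were not tested.

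Downstream of the receptors, Stat3 had a log2 difference of -0.14 (limma adjusted p = 0.293) at 72 h. Socs1, a feedback inhibitor of cytokine signalling, averaged 340 ± 26.8 in Antagomir-31 cells and 436 ± 12.3 in Antagomir-SCR cells at 72 h, a log2 difference of -0.36 with a limma adjusted p of 0.034. Socs3, the inhibitor induced through STAT3, had 0.01 (adjusted p = 0.961). Of the 12 genes tested in this list, 0 were higher and 2 lower, with a median of -0.10. None of the 7 tested neighbours of Il10 and Il24 on chromosome 1 passed at any time, and their log2 differences at 72 h ran from -0.19 to 0.11.

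Among 28 regulators of Il10 in T cells, 1 was higher and 1 lower at 72 h. Prdm1, which encodes Blimp-1, a factor that acts with c-Maf on Il10, averaged 385 ± 1.36 in Antagomir-31 cells and 314 ± 13.6 in Antagomir-SCR cells, a log2 difference of 0.30 ± 0.05 with a limma adjusted p of 0.018. Bach2, a repressor of effector genes, averaged 107 ± 3.11 in Antagomir-31 cells and 133 ± 3.27 in Antagomir-SCR cells, a log2 difference of -0.32 ± 0.05 with a limma adjusted p of 0.023. Bach2 is also 1 of 15 genes tested, besides Maf, in the list of the Maf family and bZIP partners. No other of these 15 passed. Irf4 had -0.25 (limma adjusted p = 0.069), Batf -0.11 (0.232), Nfil3 -0.01 (0.911), Bhlhe40, a repressor of Il10, -0.03 (0.785) and Tbx21, which encodes T-bet, -0.09 (0.359). Ahr was dim, at 11.2 to 14.8, and was not tested.

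Of 16 cytokine inputs to Il10 and Maf, none passed at 72 h. The log2 differences were 0.14 for Il27ra (limma adjusted p = 0.207), -0.23 for Il21r (0.114) and -0.09 for Icos (0.451). Il21, which is also 1 of 8 tested c-Maf dependent genes of T helper cells, had -0.29 (0.054), and none of the 8 passed.

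In the co-inhibitory module that T cells express together with Il10, 1 of 12 genes was higher and 1 lower at 72 h. Havcr2, which encodes TIM-3, averaged 1129 ± 30.4 in Antagomir-31 cells and 960 ± 24.0 in Antagomir-SCR cells, a log2 difference of 0.23 with a limma adjusted p of 0.027. Ctla4 averaged 316 ± 9.71 in Antagomir-31 cells and 386 ± 11.1 in Antagomir-SCR cells, a log2 difference of -0.29 with a limma adjusted p of 0.041. Among 14 other T helper cytokines, Lif, leukemia inhibitory factor, was lower, at 144 ± 6.80 in Antagomir-31 cells and 239 ± 12.3 in Antagomir-SCR cells, a log2 difference of -0.73 with a limma adjusted p of 0.00028.

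Of these 7 calls, that of Lif held when any 1 array of 72 h was left out. Those of Bach2, Ctla4, Havcr2, Il10ra, Prdm1 and Socs1 were all lost without Antagomir-31 replicate 2, Antagomir-31 replicate 3 or Antagomir-SCR replicate 3, with limma adjusted p up to 0.157. Without Antagomir-SCR replicate 2 only Prdm1 and Lif kept the call, without Antagomir-31 replicate 4 Ctla4 and Il10ra lost it, and without Antagomir-SCR replicate 4 Ctla4, Il10ra and Socs1 lost it.

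**Figure D5:**
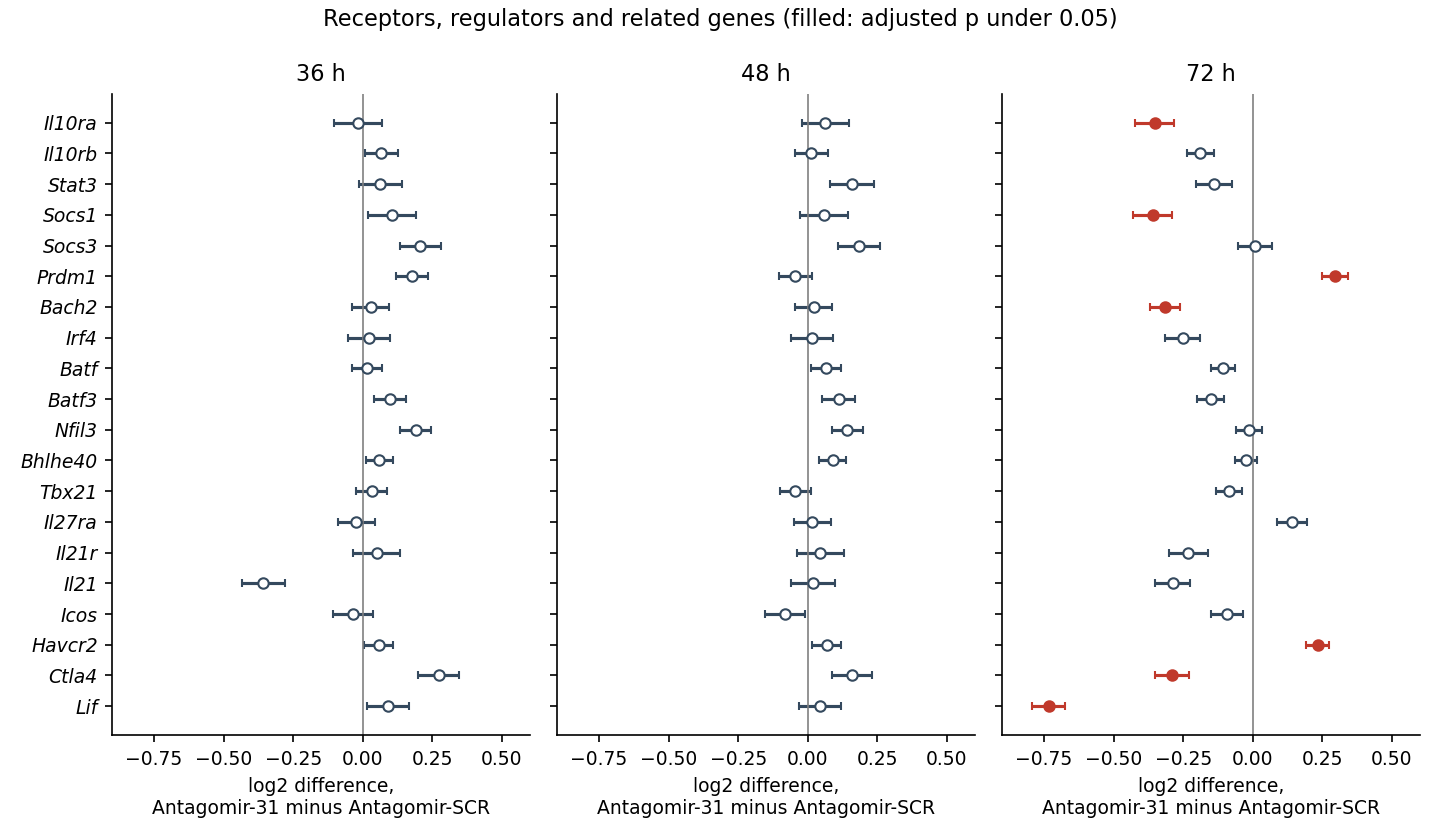
Log2 difference, Antagomir-31 minus Antagomir-SCR (x axis), of 20 receptors, regulators and related genes (rows) at 36 h, 48 h and 72 h; points are estimates, bars are 1 standard error, and filled points have a limma adjusted p under 0.05. Filled points are seen at 72 h only, at -0.73 for Lif, -0.36 for Socs1, -0.35 for Il10ra, -0.32 for Bach2, -0.29 for Ctla4, 0.23 for Havcr2 and 0.30 for Prdm1.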

How the data were processed

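The authors normalized the arrays with RMA in the affy R package and read them with GCOS (versions and build not given in the sources used here), and the deposited values are linear intensities per probe set. Their means and quartiles agree within a time point and differ between times, so arrays seem to have been normalized by time. Of 45101 probe sets, 34945 had 1 symbol in the platform annotation, 932 had several and were not used, and 9160 had none. Here log2 was taken, the highest probe set per array stood for a gene, the brightest 60% of genes by mean (10916, mean log2 of at least 4.80) were kept, and limma 3.58.1 in R 4.3.3 fitted 6 groups of treatment and time, with Benjamini-Hochberg adjustment over all genes and a threshold of 0.05. Probe sets were fitted likewise (20967 kept), and member probe sets below the filter were read from a fit over all 34945. Tables were prepared in Python 3.11.15. The fit was also run on simulated data of the same 6 groups with independent noise. Such data cannot test for shared cultures or for normalization by time. The members and lists were chosen with earlier results of these data known. Genes named are the members, every list gene past the threshold at any time, receptors and regulators fixed by name, and the 5 genes most correlated with each member; the others named were chosen after their values were seen. Of the fixed names, Il19 and Il22 were not analysed here. Of the marker lists, those of other cells were summed on every array. Alternatives were other probe set choices, filters, normalizations, variance models, fits of fewer arrays, blocks and single arrays left out. MAS5 calls and the sequencing of the study were not used here.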

Additional observations from a re-analysis of the deposited data

Results flagged for a closer look

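The difference of Il24 between treatments had opposite signs at the early times and at 72 h. The log2 difference at 72 h minus that at 36 h was -0.90, and at 72 h minus that at 48 h it was -0.93. Arrays of Antagomir-31 cells lay above all those of Antagomir-SCR cells at 36 h and 48 h and below them at 72 h. The difference between times was not tested, because the 72 h values were used to propose the gene.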

How the results depend on the processing

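Il24 kept its direction under all alternatives, between 0.12 and 0.45 at 36 h, 0.23 and 0.41 at 48 h, 0.22 and 0.39 on the early average (limma adjusted p of 0.189 to 0.693), and -0.71 and -0.54 at 72 h. Only other normalizations and left-out arrays could move these differences, since Il24 has 1 probe set. The remaining alternatives could change only its SE and p. With 1 array left out, Maf ran from -0.36 to 0.017 (36 h), 0.07 to 0.94 (48 h) and -0.049 to 0.39 (early average), and Il10 ran from -0.30 to 0.17 (48 h), -0.19 to 0.047 (early average) and -0.14 to 0.51 (72 h). The step of the level from 48 h to 72 h, 2.74 for Il10, 0.59 for Il24 and 0.48 for Maf as deposited, was 2.36, 0.26 and 0.11 after quantile normalization, and with median centring 0.23 for Il24 and 0.13 for Maf. The 115 genes changed at 72 h became 16 with no filter, 286 with a mean log2 of at least 6 (which drops Il10), 424 with a variance trend, 25 with only the arrays compared, 22 with a replicate block, and 11 to 98 with 1 array left out. The 1 gene of the early average became 0 with no filter, 13 at a mean of at least 6, 3 with median centring, 14 with a trend, 0 with only the arrays compared, 0 with a replicate block and 0 to 3 with 1 array left out. At 36 h 1 gene passed with a trend and 0 to 1 with 1 array left out. Of the list genes called at 72 h, Lif passed in all alternatives, while Bach2, Ctla4, Havcr2, Il10ra, Prdm1 and Socs1 did not pass with no filter, and of these 6 only Bach2 passed with only the arrays compared and only Ctla4 with a replicate block. The cause was not tested. The arrays were not treated as paired, since the labels name nothing shared by equal numbers. Deviations of equal numbers from their group means correlated at 0.06 at 36 h, -0.17 at 48 h and -0.07 to 0.06 at 72 h. Best matches with the own number were 4 of 4 arrays at 36 h, 0 of 4 at 48 h and 2 of 6 at 72 h. Where a group has 2 arrays, this count can only be all or none. Thus at 36 h and 48 h it repeats the sign of the correlation. Il24 itself rose with the replicate number in both treatments at every time. A replicate block lowered its SE from 0.128 to 0.062 at 36 h and from 0.105 to 0.051 at 72 h. The same block raised the SE at 36 h from 0.324 to 0.344 for Il10 and from 0.225 to 0.239 for Maf. With the numbers of 48 h crossed, an alternative chosen after seeing the data, 0 genes passed at 48 h and 0 on the early average. The number of arrays limits the precision.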

Other observations

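Markers of other cells were summed on every array. At 72 h the sum of 6 Th2 genes was 164 to 182 in Antagomir-31 cells and 161 to 173 in Antagomir-SCR cells, and the treatments overlapped. The sum of 5 dendritic cell genes was 149 to 166 in Antagomir-31 cells and 153 to 162 in Antagomir-SCR cells, again with overlap. The sum of 5 Treg genes given above was mostly Il2ra and did not overlap between the treatments at 72 h, with Antagomir-31 cells below. Among all genes tested, 14.7% were apart in that direction at this time. Il2ra itself had a log2 difference of -0.05 (limma adjusted p = 0.672), Nrp1 -0.05 (0.637) and Ikzf2 0.12 (0.492). Ctla4, of the same list, was called lower above. Foxp3 was at most 15.8 on every array. The sum of 5 CD8 T and NK cell genes was 2409 to 2558 in Antagomir-31 cells and 2555 to 2890 in Antagomir-SCR cells, of which Klrk1 alone averaged 2364 in Antagomir-31 cells and 2628 in Antagomir-SCR cells, while Cd8a, Cd8b1, Ncr1 and Eomes were at most 45.1 on any array. Their part in the values of Il24, Il10 and Maf was not tested. Mafk, a small Maf protein without a transactivation domain, named after its values were seen, averaged 138 ± 9.84 in Antagomir-31 cells and 156 ± 13.3 in Antagomir-SCR cells at 36 h, 130 ± 3.51 in Antagomir-31 cells and 149 ± 4.15 in Antagomir-SCR cells at 48 h, and 202 ± 8.77 in Antagomir-31 cells and 187 ± 4.91 in Antagomir-SCR cells at 72 h (SD, n = 2, 2 and 3 each), with log2 differences of -0.17, -0.19 and 0.11 and limma adjusted p of 0.897, 0.739 and 0.344. Mafg had log2 differences of 0.09, 0.002 and -0.05 at these times.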
